A study of Mus musculus with 12 samples.

Results

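Cxcl9, Cxcl10 and Cxcl11 encode the chemokines that signal through the receptor CXCR3, and they were taken by symbol from the count table: 3 genes of the 55216 listed. The libraries came from Myc-CaP cells, an established line from a prostate tumour of a male FVB/NJ mouse that overexpresses Myc, so every group shares that 1 line and its transgene. By sample title the 12 libraries form 6 groups of 2, all at 48 h: untreated cells (Ctrl), IFNγ at 200 pg (IFN200), IFNγ at 2000 pg (IFN2000), oxaliplatin at 2 µM (Oxali), and oxaliplatin with IFNγ at 200 pg (Combo200) or at 2000 pg (Combo2000). The labels give the IFNγ amounts with no volume. The labels also carry an agent field, and for the 6 single-treatment libraries it disagrees with the title: libraries titled IFN200 have oxaliplatin as agent, those titled IFN2000 have 200 pg IFNγ, and those titled Oxali have 2000 pg IFNγ. Groups follow the titles here, and were the agent field right, these 3 group names would trade places in every comparison with a single treatment, while Ctrl and both combinations would keep theirs. By title, the IFNγ receptor chain gene Ifngr2 (in CPM, counts scaled to library size) was at 1.12 ± 0.299 in Ctrl, 1.03 ± 0.390 with IFN200, 0.939 ± 0.0652 with IFN2000 and 4.66 ± 0.315 with Oxali, next to 4.86 ± 0.589 and 5.47 ± 0.119 with the combinations. The NF-κB subunit gene Relb was at 4.10, 3.57 and 4.07 CPM in the first 3 of these groups, 33.0 with Oxali, and 40.8 and 38.9 with the combinations. For both genes the libraries titled Oxali thus stood near the combinations, which all sources label as holding oxaliplatin, and those titled IFN200 and IFN2000 stood near Ctrl.

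CXCR3 sits mainly on activated CD8+ T cells, Th1 cells and NK cells, and its ligands guide these cells into inflamed tissue and tumours. Their genes lie in a row in the mouse genome and are classic targets of interferon: IFNγ binds a receptor made of IFNGR1 and IFNGR2, the kinases JAK1 and JAK2 pass the signal on, and transcription factors of the STAT and IRF families act on the chemokine promoters. Cxcl10 also responds to NF-κB and to type I interferon, whereas Cxcl9 is known as the ligand that depends most on IFNγ. Oxaliplatin is a platinum drug that crosslinks DNA, and the study asked how it and IFNγ, alone or together, change gene expression in these cancer cells.

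In the GENCODE vM21 models of GRCm38 the ligand genes stand side by side on the minus strand of chromosome 5. Cxcl9 (ENSMUSG00000029417.9) spans chr5:92321347-92328079, Cxcl10 (ENSMUSG00000034855.13) spans chr5:92346638-92348889 and Cxcl11 (ENSMUSG00000060183.6) spans chr5:92359544-92365485. The gap from Cxcl9 to Cxcl10 is 18558 bases and that from Cxcl10 to Cxcl11 is 10654 bases. Cxcl11 is annotated as a polymorphic pseudogene, a gene that is broken in the reference strain, C57BL/6J, and can be intact in others, so its counts here are of transcript and say nothing about a working protein. Art3 runs through Cxcl10 and Cxcl11 on the other strand and shares 133 exon bases with Cxcl10, and the pseudogene Gm2673 covers 41.7% of the Cxcl11 exon bases on the other strand. Art3 had 1 count in each of 2 libraries and Gm2673 had 0 in all 12.

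The 250 bases before the annotated start of Cxcl9 and of Cxcl10 are shown because these genes are the NF-κB and interferon targets with the lowest and the highest counts of the family. Capitals mark matches, on either strand, to GAAANNGAAA (the core letters of the interferon-stimulated response element), to TTCNNNGAA (the gamma-activated site of IFNγ signalling), and to GGGANTTCC or GGGANNTTCC (forms of the κB site). The sequences are from RefSeq (GRCm38.p6), read 5′ to 3′ on the minus strand, from chr5:92328080-92328329 for Cxcl9 and chr5:92348890-92349139 for Cxcl10.
Cxcl9: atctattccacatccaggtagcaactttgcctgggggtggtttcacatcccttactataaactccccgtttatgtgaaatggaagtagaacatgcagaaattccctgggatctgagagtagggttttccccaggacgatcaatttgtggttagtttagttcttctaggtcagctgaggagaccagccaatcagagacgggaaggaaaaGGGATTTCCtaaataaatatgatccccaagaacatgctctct
Cxcl10: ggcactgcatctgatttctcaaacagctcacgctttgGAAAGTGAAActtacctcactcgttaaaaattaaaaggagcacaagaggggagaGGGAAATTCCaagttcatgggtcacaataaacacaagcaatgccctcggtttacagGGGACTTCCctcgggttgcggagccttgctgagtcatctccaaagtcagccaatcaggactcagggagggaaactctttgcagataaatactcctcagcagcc

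The Cxcl9 window held 1 match, GGGATTTCC, which begins 42 bases before the start. The Cxcl10 window held 3: GAAAGTGAAA beginning 213 bases before the start, GGGAAATTCC at 159 and GGGACTTCC at 103, none of which overlap. TTCNNNGAA matched in neither window. Among 32851 promoter windows of the same length, GAAANNGAAA matched in 2.98%, TTCNNNGAA in 7.02%, GGGANTTCC in 1.43% and GGGANNTTCC in 1.21%. The motifs were chosen after the sequences had been seen, and a match describes letters and not a bound site. Cxcl11 had no entry in the promoter table.

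All 3 ligands were highest in Combo2000, where the libraries lay far above those of every other group, and only Cxcl10 had more than 2 counts in any library without oxaliplatin. Library totals ran from 18749975 to 25931516 counts. Levels are given as CPM, a count divided by the library's effective size (TMM scaling, which uses the trimmed mean of M values), and differences as log2 fold changes from edgeR's quasi-likelihood test, called at a Benjamini-Hochberg adjusted p below 0.05 over the 13177 genes that passed a filter on low counts. Fold ratios near 0 carry 95% intervals that cover counting error only. A fold given as at least some value sets a reference group at 0 to 3 counts over the group. It leaves out counting error in the other group. Nothing in the labels says that paired libraries were separate cultures, so the p-values measure the spread between these libraries. In these bulk libraries, fewer cells that make a transcript and less transcript per cell cannot be told apart.

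Cxcl10, the ligand with the broadest set of inducers, had the most counts of the family in every library. Ctrl libraries had 4 and 2 counts, IFN200 libraries 1 and 4, and IFN2000 libraries 7 and 8. Oxali libraries had 18 and 20, Combo200 libraries 49 and 62, and Combo2000 libraries 447 and 399. From IFN2000 upward, each group's libraries lay wholly above those of the group before it, while Ctrl and IFN200 overlapped. As mean CPM ± SD (n = 2 each) the order of levels was IFN200 (0.110 ± 0.0943), Ctrl (0.162 ± 0.0857), IFN2000 (0.328 ± 0.0405), Oxali (0.892 ± 0.0885), Combo200 (2.27 ± 0.183) and Combo2000 (16.9 ± 0.452). IFN200, Ctrl and IFN2000 are the neighbours in this order that no test separated. Oxali was not tested against IFN2000.

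**Figure D1:**
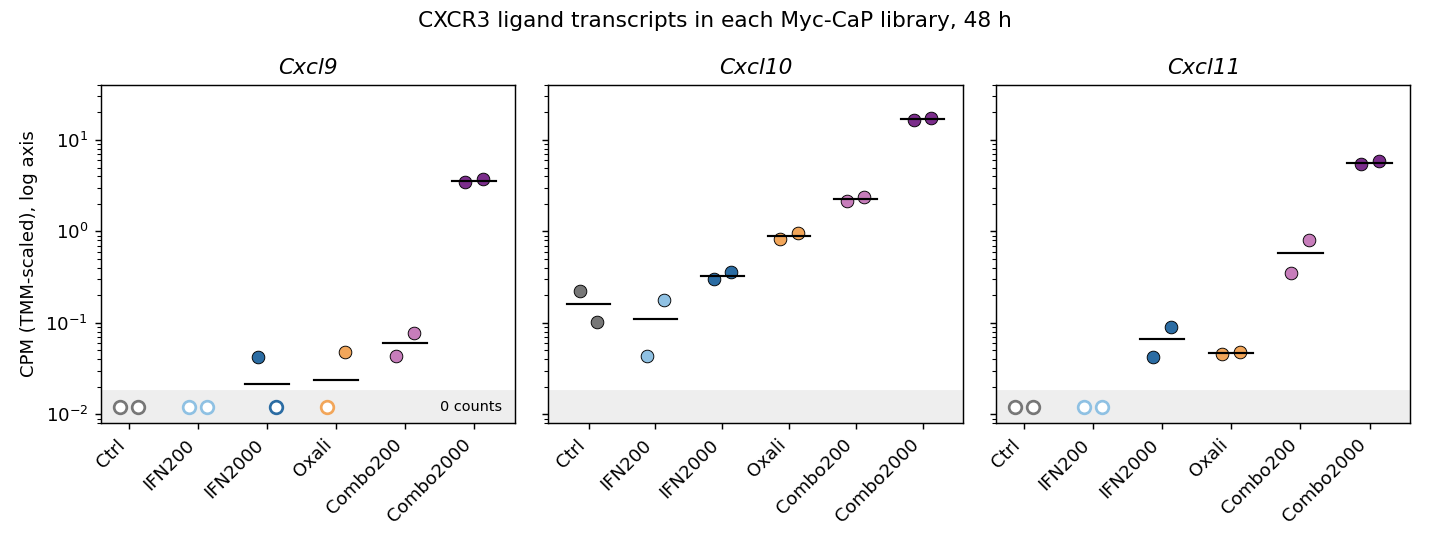
CPM of each ligand (log axis) in the 12 libraries by group. Filled points are libraries, lines are group means, and open circles in the grey strip are libraries with 0 counts. Both Combo2000 points lie above every other point in each panel, and Cxcl10 alone has a filled point in all 12 libraries.

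IFNγ alone gave no call for any ligand with edgeR, and none of the 3 reached an unadjusted p below 0.05 at either dose. For Cxcl10 the log2 difference from Ctrl was -0.52 (SE 0.76, adjusted p = 0.944) in IFN200 and 1.02 (SE 0.59, adjusted p = 0.297) in IFN2000 by edgeR's quasi-likelihood test. As ratios these were 0.688 (interval 0.166 to 2.71) and 2.06 (0.755 to 6.48), so a rise of up to 6.48-fold at the higher dose lies within the counting interval. Of all genes tested, 0.114% were called higher in IFN200 and 8.39% in IFN2000. IFN2000 against IFN200 gave a log2 difference of 1.54 (SE 0.61, adjusted p = 0.0820), with 11.3% of genes called higher. Cxcl9 and Cxcl11 had 0 counts in all Ctrl and IFN200 libraries, which with 3 counts over the group as the limit allows up to 0.0796 CPM in Ctrl and 0.0657 CPM in IFN200. In IFN2000 Cxcl9 had 1 and 0 counts and Cxcl11 had 1 and 2, and with both groups at 3 counts or fewer no fold over Ctrl is given.

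Oxaliplatin alone raised Cxcl10 and left the other ligands at the edge of detection. Cxcl10 rose by a log2 difference of 2.44 over Ctrl (SE 0.48, edgeR adjusted p = 0.000148), a ratio of 5.60 (2.35 to 16.2), in a comparison that called 34.8% of all genes higher. Cxcl9 had 0 and 1 counts in Oxali and Cxcl11 had 1 in each library, so no difference from Ctrl was detectable at this depth.

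With 200 pg IFNγ added to oxaliplatin, Cxcl11 and Cxcl10 rose over either agent alone. Cxcl11, the ligand with the highest affinity for CXCR3, had 8 and 21 counts in Combo200, or 0.580 ± 0.327 CPM, against 1 and 1 in Oxali and none in Ctrl or IFN200. Its ratio was at least 7.47-fold higher than in Ctrl and at least 9.05-fold higher than in IFN200, bounds set by 3 counts over the group at 0, and 12.7 (3.21 to 110) over Oxali. The edgeR adjusted p-values were 7.73e-05 against Ctrl, 3.56e-05 against IFN200 and 0.0128 against Oxali. Cxcl11 passed the filter only through Combo200 replicate 3 and the Combo2000 libraries. Its p-values are therefore no support apart from these same high counts. The call against Oxali was lost without Combo200 replicate 3 (adjusted p = 0.299), without Oxali replicate 1 (0.110) or replicate 2 (0.149), and with DESeq2 (0.0808).

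Cxcl10 in Combo200 exceeded Ctrl by a log2 difference of 3.79 (SE 0.37, edgeR adjusted p = 2.42e-08) and IFN200 by 4.31 (SE 0.38, adjusted p = 4.51e-09). Over Oxali it rose by 1.35 (SE 0.24, edgeR adjusted p = 0.00241), a ratio of 2.55 (1.75 to 3.80). Without Combo200 replicate 3 this became 1.26, with an edgeR adjusted p = 0.0507. Cxcl9 had 1 and 2 counts, and no difference of Cxcl9 from Ctrl, IFN200 or Oxali was called. Genes called higher made up 35.6% against Ctrl, 36.5% against IFN200 and 1.58% against Oxali, and 1.65% were called, in either direction, against all 3.

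In Combo2000 all 3 ligands were called higher than in Ctrl, in IFN2000, in Oxali and in Combo200. The filter bears on this: Cxcl9 passed it only through the Combo2000 libraries, Cxcl11 through these and Combo200 replicate 3, and Cxcl10 through the Oxali, Combo200 and Combo2000 libraries. Called higher among all genes were 35.7% against Ctrl, 38.5% against IFN2000, 3.37% against Oxali and 1.21% against Combo200, and 3.73% were called, in either direction, against Ctrl, Oxali and IFN2000 alike.

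Cxcl10 in Combo2000, at 16.6 and 17.2 CPM, stood 6.68 log2 units above Ctrl (SE 0.24, edgeR adjusted p = 5.19e-15), a ratio of 106 (48.5 to 289). It stood 5.66 (SE 0.20, edgeR adjusted p = 3.02e-15) above IFN2000 and 4.23 (SE 0.17, adjusted p = 1.37e-13) above Oxali, the latter a ratio of 18.9 (13.7 to 26.9). Between the combination doses it rose by 2.89 (SE 0.13, edgeR adjusted p = 1.04e-11), a ratio of 7.41 (6.07 to 9.11).

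Cxcl11 had 146 and 137 counts in Combo2000, or 5.66 ± 0.351 CPM. It was at least 70.9-fold higher than in Ctrl (edgeR adjusted p = 2.04e-10), 120-fold higher than in Oxali (33.0 to 998, adjusted p = 2.96e-09) and 86.0-fold higher than in IFN2000 (29.1 to 419, adjusted p = 1.38e-10), where the references held 2 and 3 counts in all, so that the intervals carry more than the ratios. Over Combo200 the ratio was 9.49 (6.46 to 14.4, edgeR adjusted p = 1.77e-07). Cxcl11 passed the filter only through these libraries and Combo200 replicate 3, so its p-values are no support apart from these same high counts.

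Cxcl9, also called the monokine induced by IFNγ, had 93 and 87 counts in Combo2000, or 3.60 ± 0.216 CPM, after no more than 2 counts in any other library. It was at least 45.1-fold higher than in Ctrl (edgeR adjusted p = 1.65e-09). Cxcl9 passed the filter only through the Combo2000 libraries, so its p-values are no support apart from these same high counts. Oxali and IFN2000 each held 1 count in all, and the ratio was 153 (27.1 to 6077) over Oxali and 164 (29.1 to 6516) over IFN2000, with edgeR adjusted p-values of 2.52e-08 and 8.23e-10. Over Combo200 it was 58.3 (19.6 to 286, edgeR adjusted p = 5.67e-08). Its counting interval for the step between combination doses lies wholly above those of Cxcl10 and Cxcl11. These intervals cover counting error only, and paired libraries differed by more than that. Combo200 held 3 counts of Cxcl9 in all.

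Whether IFNγ changed a ligand more with oxaliplatin than without was tested by an interaction term. For Cxcl10 the log2 change with 2000 pg IFNγ was larger by 3.22 in the presence of oxaliplatin (SE 0.79, edgeR adjusted p = 0.0329), in a test that called 2.12% of genes higher. The call was lost without Ctrl replicate 1 (difference 2.58, edgeR adjusted p = 0.433), Ctrl replicate 2, IFN2000 replicate 2, Oxali replicate 1, Oxali replicate 2 or Combo2000 replicate 2, with differences of 2.58 to 3.69 over all single omissions. At 200 pg the difference was 1.86 (SE 0.83, edgeR adjusted p = 0.477), and 0.562% of genes were called higher. Cxcl9 and Cxcl11 had no counts in Ctrl, so their interactions could not be estimated on a log scale.

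On the linear scale, which needs no logarithm of 0, the sum of Ctrl and both single changes was compared with the combination as a description. For Cxcl10 the sum came to 0.840 CPM at 200 pg and 1.06 CPM at 2000 pg, and the combination means were 2.7 and 16.0 times these. For Cxcl9 and Cxcl11 the single-treatment groups held at most 3 counts each, so no multiple of their sums is given. Both combination libraries exceeded the sum for each ligand at each dose (for Cxcl9 at 200 pg this rests on 3 counts in all), as they did for 42.6% of all genes at 200 pg and 40.3% at 2000 pg, so the direction alone does not set the ligands apart.

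**Figure D2:**
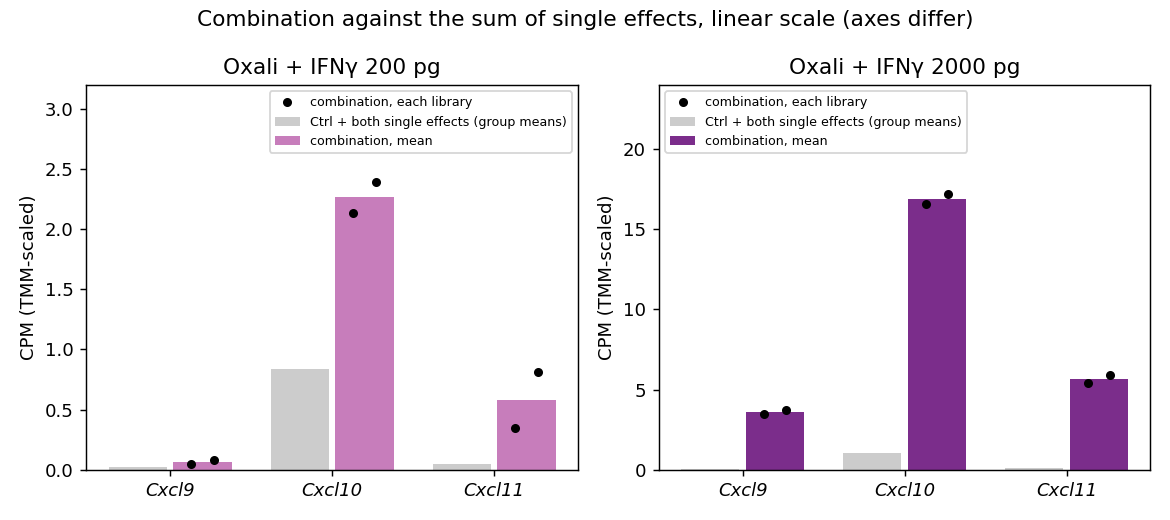
Grey bars are Ctrl plus both single changes (group means), coloured bars are combination means and black points are the 2 combination libraries, in CPM, with 200 pg IFNγ at left and 2000 pg at right on different axes. At 2000 pg the Cxcl10 points reach 16.6 and 17.2 CPM over a grey bar at 1.06 CPM.

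Cxcl10 took a smaller share of the family's counts in Combo2000 than in Oxali, as a description. Summed counts of the 3 ligands were 1 to 10 in the 6 libraries without oxaliplatin, 19 and 22 with Oxali, then 58 and 85 (Combo200) and 686 and 623 (Combo2000). Cxcl10 gave 94.7% (exact 95% interval 74.0 to 99.9) and 90.9% (70.8 to 98.9) of them in Oxali, 84.5% (72.6 to 92.7) and 72.9% (62.2 to 82.0) in Combo200, and 65.2% (61.5 to 68.7) and 64.0% (60.1 to 67.8) in Combo2000. Cxcl9 gave 1.72% (0.0436 to 9.24) and 2.35% (0.286 to 8.24) in Combo200 but 13.6% (11.1 to 16.3) and 14.0% (11.3 to 16.9) in Combo2000. The Cxcl9 intervals of the combination doses do not overlap, but they cover counting error only, and paired libraries differ by more than that. Cxcl11 gave 13.8% (6.15 to 25.4) and 24.7% (16.0 to 35.3) in Combo200 and 21.3% (18.3 to 24.5) and 22.0% (18.8 to 25.5) in Combo2000, where the doses overlap. With 2 libraries a dose, the smallest 2-sided p of an exact permutation test is 0.333, which is also the value for the ratio of Cxcl9 to Cxcl10 between the doses.

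**Figure D3:**
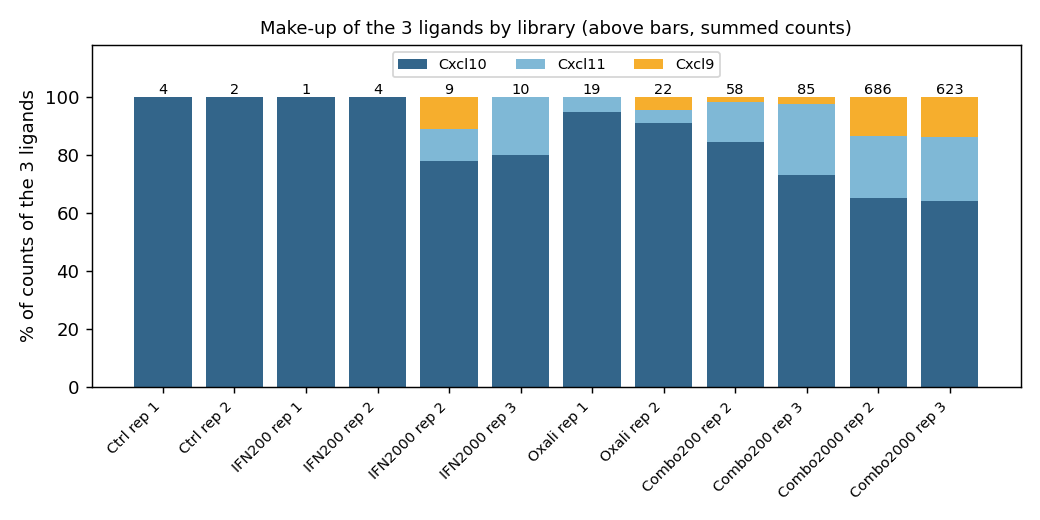
Share of the ligands' summed counts (%) that came from Cxcl10, Cxcl11 and Cxcl9 in each library, with the summed count above each bar. The 6 bars without oxaliplatin rest on 10 counts or fewer, and the Cxcl9 portion is visible mainly in Combo2000, at 13.6% and 14.0%.

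The balance between members could not be compared between libraries with and without oxaliplatin. In the 6 libraries without it, Cxcl9 had 0 or 1 counts and Cxcl11 had 0 to 2, so a ratio to either is set by the number added to the counts.

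Levels were also divided by kilobases of exon, taken as the union over a gene's transcripts. Cxcl10 led in Combo2000 at 7.50 ± 0.201 CPM per kb, ahead of Cxcl11 at 1.49 ± 0.0926 and Cxcl9 at 1.19 ± 0.0715. For Cxcl10 the union is 1 block of 2252 bases that fills the gene's span, so any intron bases count as exon. That would lower its level on this scale. Cxcl9 and Cxcl11 have 4 blocks each, so the lengths are not fully comparable between genes. On this scale Cxcl10 made up 74.1% and 73.2% of the family in the libraries of that group. In Combo200 the levels were 1.01 ± 0.0813 for Cxcl10, 0.153 ± 0.0862 for Cxcl11 and 0.0200 ± 0.00790 for Cxcl9.

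The pathway towards the ligands was followed in 27 genes for interferon and TNF receptors, kinases, STAT, IRF and NF-κB factors, nucleic acid sensing and feedback inhibitors, all of which passed the filter. Against Ctrl, 8 were called higher and 2 lower with IFN2000 and 19 higher and 4 lower with Oxali. Combo200 gave 21 and 4, and Combo2000 gave 23 and 4. In IFN200 none was called by edgeR or DESeq2, and 5 had an unadjusted p below 0.05. Beside the shares of all genes called higher given above, the shares called lower were 8.47% (IFN2000), 32.8% (Oxali), 33.1% (Combo200) and 33.5% (Combo2000). The list's median log2 difference was 0.09 in IFN2000, 0.52 in Oxali and 0.77 in Combo2000, where the median of all genes was 0.00, 0.02 and 0.02. Without IFN2000 replicate 2 the IFN2000 counts were 6 higher and 0 lower.

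The members of this list fell into different patterns. Irf1, an IFNγ-induced factor that acts on interferon-responsive promoters, stood at 37.8 ± 1.14 CPM in Ctrl, and IFN2000 cells had 94.2 ± 0.456, Oxali cells 95.2 ± 1.54 and Combo2000 cells 439 ± 9.26. Its interaction was 0.88 (SE 0.07, edgeR adjusted p = 7.58e-08). Both single treatments and the combination raised Irf1, and the IFNγ change was larger with oxaliplatin.

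Irf9, the IRF subunit of the complex that type I interferon activates, had an interaction of 1.02 (SE 0.12, edgeR adjusted p = 3.72e-05). Irf8, an IFNγ-induced partner of other IRF factors, was called in Combo2000 against Ctrl (3.78, SE 0.27, edgeR adjusted p = 2.13e-10) and not in Oxali (0.23). Its interaction of 2.25 (SE 0.54, edgeR adjusted p = 0.0287) was lost without Ctrl replicate 1 (1.95, adjusted p = 0.290), Ctrl replicate 2, Oxali replicate 2 or Combo2000 replicate 2. Socs1, the feedback inhibitor of JAK kinases, rose by 3.27 in Combo2000 (SE 0.17, edgeR adjusted p = 2.28e-12). Irf7, which drives type I interferon responses, rose by 2.29 in Oxali and 3.72 in Combo2000. In all, 7 of the 27 had a called interaction at 2000 pg and each was higher, where 2.12% of all genes were, with Stat2, Stat3, Irf1, Irf2, Irf8 and Irf9 among them. Irf2 lost its call with DESeq2 and without Ctrl replicate 1, Ctrl replicate 2, Oxali replicate 2 or Combo2000 replicate 3.

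Relb, Nfkb2, Nfkbia and Ifngr2 were called higher in Oxali and in Combo2000. Relb, a subunit of noncanonical NF-κB, differed from Ctrl by -0.01 in IFN2000, 3.00 in Oxali and 3.24 in Combo2000. Nfkb2, its p100 partner, gave 0.03, 1.98 and 2.15, and Nfkbia, the inhibitor IκBα, gave 0.04, 1.70 and 1.80. Ifngr2, the signalling chain of the IFNγ receptor, rose by 2.06 in Oxali (SE 0.23, edgeR adjusted p = 1.48e-07) and by 2.29 in Combo2000 (SE 0.22, edgeR adjusted p = 1.46e-08). The other NF-κB genes of the list differed less: from Ctrl to IFN2000, Oxali and Combo2000, Rela differed by -0.08, 0.37 and 0.44, Rel by -0.24, 0.52 and 0.45, and Nfkb1 by -0.04, 0.06 and 0.11. None of Relb, Nfkb2, Nfkbia and Ifngr2 was called in IFN2000 or in the interaction at 2000 pg. The genes called lower in Oxali were Irf3 (-0.31), Socs3 (-0.41), Ifnar1 (-0.36) and Tnfrsf1a (-0.51), of which Ifnar1 and Tnfrsf1a are receptor chains for type I interferon and TNF.

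**Figure D4:**
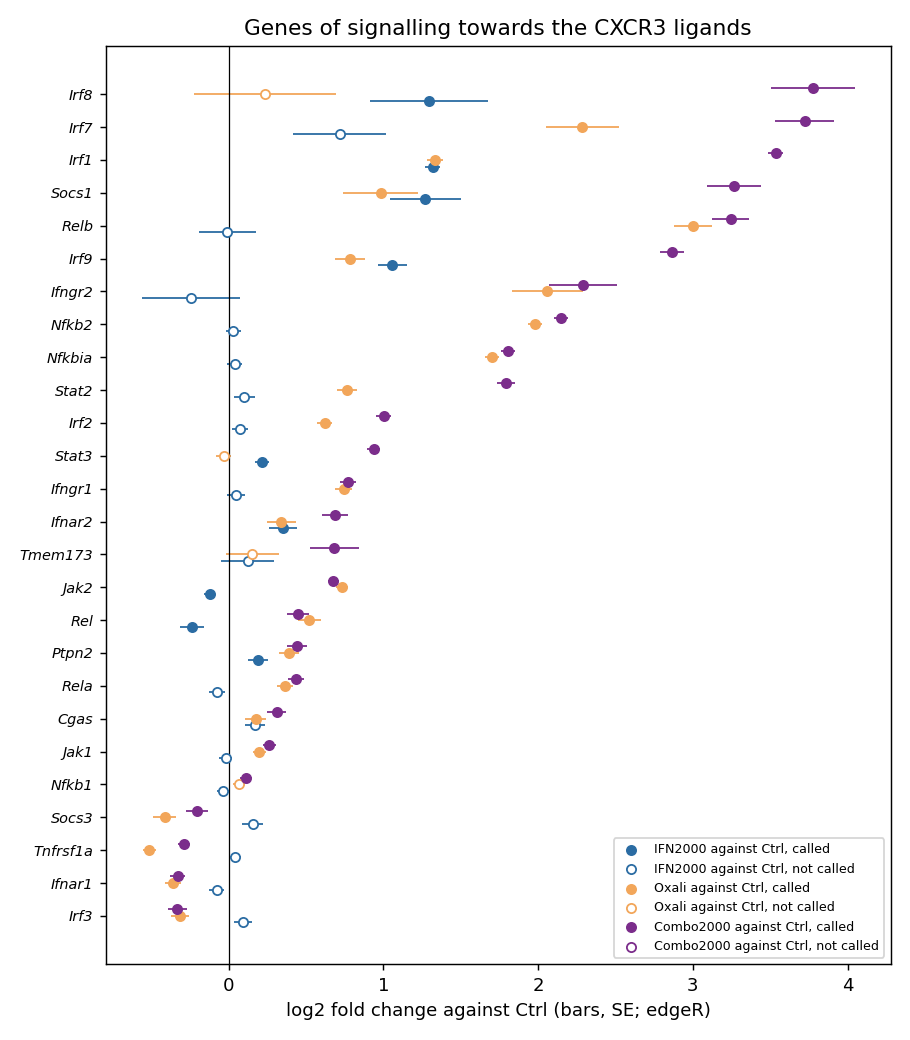
Log2 fold change against Ctrl with SE for 26 of the 27 signalling genes in IFN2000, Oxali and Combo2000, with filled points called and open points not called by edgeR. Irf8 has the largest change shown for Combo2000, at 3.78, and Relb, Nfkb2 and Nfkbia lie near 0 in IFN2000 but not in Oxali.

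Of cytokines that induce the ligands, 5 genes were read (Ifng, Ifnb1, Tnf, Il1a and Il1b), and their transcripts were few outside 1 library. Type I interferon genes other than Ifnb1 were not read. Il1a had at most 3 counts in a library and Il1b at most 7, the latter in an Oxali library. Ifnb1 had 0 counts in all 12 libraries. Ifng had 117 counts and Tnf had 146 in IFN2000 replicate 2. Elsewhere Ifng had 9 in Combo200 replicate 3 and 1 in a Ctrl library, and Tnf had 5 in Combo200 replicate 3 and 1 in a Combo2000 library. Cxcl10 had 7 counts in IFN2000 replicate 2 and 8 in its partner. Combo200 replicate 3 had 62 counts of Cxcl10 and 21 of Cxcl11, against 49 and 8 in its partner. The part of the Ifng and Tnf transcripts in these levels was not tested. None of the 5 cytokine genes passed the filter.

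On the receptor side, Cxcr3 and Dpp4, the peptidase that clips and inactivates CXCR3 ligands, had 0 counts in all 12 libraries. Ackr3, an atypical receptor that binds and removes CXCL11, was higher than Ctrl by 0.27 in IFN2000 (edgeR adjusted p = 0.00275), 0.32 in Oxali and 0.40 in Combo2000.

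Among 21 other chemokine genes, 9 passed the filter, and none had a called interaction by edgeR or DESeq2 (at an unadjusted p below 0.05, 1 at 200 pg and 2 at 2000 pg). Of all genes, edgeR called 0.562% higher in the interaction at 200 pg and 2.12% at 2000 pg. The absence of calls among 9 genes therefore does not set these chemokines apart. In Oxali 5 were higher than Ctrl and 1 lower, and in Combo2000 6 were higher and 1 lower, where 34.8% and 32.8% of all genes were called higher and lower in Oxali and 35.7% and 33.5% in Combo2000. With DESeq2 the Oxali counts were 3 and 1. Cx3cl1, the membrane-bound ligand of CX3CR1, stood at 6.74 ± 0.00578 CPM in Ctrl and rose to 23.2 ± 2.14 with Oxali and 26.2 ± 2.04 with Combo2000, and Ccl17, a ligand of CCR4, rose by 1.92 and 1.53 log2 units. Cxcl5, a ligand of the neutrophil receptor CXCR2, fell by 0.67 in Oxali and by 0.77 in Combo2000. Ccl5, which draws T cells and monocytes, had no counts in Ctrl and 0 and 1 in IFN200. Ccl5 counts were 8 and 2 in IFN2000 and 2 and 3 in Oxali libraries, and the combinations had 10 and 16 (Combo200) and 20 and 25 (Combo2000, edgeR adjusted p = 1.09e-05 against Ctrl). The Ccl5 call in IFN2000 was lost without IFN2000 replicate 2 or either Ctrl library, and that in Oxali was lost with DESeq2 and without either Oxali or either Ctrl library. Ccl3 and Ccl4 had 190 and 194 counts in IFN2000 replicate 2 and 0 in its partner. Elsewhere they had at most 1 and 5 counts in a library. The source of these transcripts was not tested.

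The neighbours on chromosome 5 differed from Ctrl by less than 1 log2 unit. Within 200 kb of a ligand gene, 17 other genes were in the table and 5 of them passed the filter. In Combo2000 against Ctrl, Naaa differed by 0.79, Scarb2 by 0.31, Uso1 by -0.54 and Sdad1 by -0.78, all called by edgeR in a comparison that called 35.7% of all genes higher and 33.5% lower, and Nup54 differed by 0.07 and was not called. The values in Oxali were 0.71, 0.28, -0.56, -0.86 and -0.04 in the same order. No neighbour had a called interaction at either dose by edgeR or DESeq2, and 1 at each dose had an unadjusted p below 0.05. With 0.562% of all genes called higher by edgeR at 200 pg and 2.12% at 2000 pg, this does not set the neighbours apart.

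The genes whose log2 CPM ran most like each ligand's were found by Pearson r over the 12 libraries, which share the treatments and hence much of their order, among 10476 genes. For Cxcl10 these were Plgrkt (0.986), Cd274 (0.982), which encodes PD-L1, Ube2l6 (0.978), Stat2 (0.978) and C1ra (0.975). For Cxcl11 they were C1ra (0.981), Enc1 (0.980), Ube2l6 (0.978), Plaat3 (0.975) and Stat3 (0.968). For Cxcl9 they were Stat3 (0.942), Tpmt (0.939), Inpp5j (0.918), Ifi204 (0.916) and Plaat3 (0.904). Cxcl9 had no more than 2 counts in any library outside Combo2000, so r with Cxcl9 mainly reflects how far a gene stood out in that group. Between the ligands r was 0.958 for Cxcl10 and Cxcl11, 0.937 for Cxcl9 and Cxcl11, and 0.886 for Cxcl9 and Cxcl10.

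Markers of other cells were read because macrophages, endothelium and fibroblasts also make these chemokines. The summed CPM of 8 macrophage markers was 13.1 to 15.4 in Ctrl, 12.5 to 12.7 with IFN200 and 13.3 to 18.3 with IFN2000. With oxaliplatin it was 16.3 to 16.9 (Oxali), 17.3 to 18.8 (Combo200) and 16.6 to 17.8 (Combo2000). Of these markers, Adgre1 and Itgam had 0 counts in all 12 libraries. Cd14 made up most of the sum. Csf1r, the receptor for the macrophage growth factor CSF1, had 0 counts in the 6 libraries without oxaliplatin and 8 to 19 in the 6 with it, and Ptprc, which marks leukocytes, had 64 in IFN2000 replicate 2 and 0 to 2 elsewhere. The part of these transcripts in the ligand levels was not tested. The sum of 8 T cell markers was 0.389 to 0.507 in Ctrl, 0.442 to 0.694 with IFN200, and 0.714 and 6.81 with IFN2000. With oxaliplatin it was 2.58 to 2.95 (Oxali), 3.56 to 4.93 (Combo200) and 3.97 to 4.85 (Combo2000). IFN2000 replicate 2 gave the 6.81, with 13 counts of Cd3d, which was at 0 in the other 11 libraries. In the oxaliplatin groups the T cell sum came mainly from Lck and Il2rb. Its part in the ligand levels was not tested.

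The sum of 4 endothelial markers reached at most 0.217 CPM in any library. That of 5 fibroblast markers was 9.95 to 17.4 CPM without oxaliplatin and 20.9 to 25.6 with it, nearly all of it Pdgfra, which rose from Ctrl by 0.73 log2 units in Oxali and 0.46 in Combo2000 (edgeR adjusted p = 7.92e-07 and 0.000181). Lum had 0 counts throughout, and the part of these transcripts was not tested either. That of 6 heart muscle markers was 0.835 to 6.64 CPM, highest in an IFN200 library. Of the markers of prostate epithelium and of the line, Epcam had 0 counts in all 12 libraries, whereas group means of the luminal keratin Krt8 ran from 18.6 to 23.1 CPM and those of Myc from 129 to 147 CPM.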

How the data were processed

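Poly(A) RNA of Myc-CaP cells was sequenced by the authors with a stranded kit. The deposited values are raw read counts per gene; according to the methods, STAR alignments to GENCODE models were counted with featureCounts, whereas the submitters' processing notes name STAR 2.7.3a and RSEM 1.3.0. Whether strand was used in counting is not given in the sources used here. Libraries were grouped by title.

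The 55216 genes were filtered (edgeR filterByExpr, minimum count 10, minimum total 15), leaving 13177, and fitted in 1 quasi-likelihood model with a mean per group and TMM scaling (edgeR 4.0.16, R 4.3.3). The 13 contrasts were adjusted separately by Benjamini-Hochberg. Ratios are of scaled counts with exact conditional intervals, and groups at 0 were set to 3 counts over the group. Member ratios were compared by exact 2-sided permutation (Python 3.11.15) but not used, since Cxcl9 and Cxcl11 are near 0 without oxaliplatin. Scripts were tested on simulated data. Alternatives were RLE and upper-quartile scaling, DESeq2 1.42.0, no filter, a replicate block, only the groups compared, other pseudocounts and each library left out; RLE and upper-quartile scaling of the ratios and linear levels were added after seeing the data.

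All 3 ligands are named throughout. List genes are named if called in IFN2000, Oxali or Combo2000 against Ctrl or in an interaction, at most 10 a list by size of change in Combo2000, beside the 5 genes most like each ligand (mean log2 CPM of 1 or more). The signalling genes called lower in Oxali, the genes of called interactions beyond the rule (Stat2, Stat3 and Irf2), the other NF-κB genes and marker genes were named after their values were seen. The members and lists were chosen with earlier results of these data known. Some members of the signalling and marker lists are not reported here by name, and 1 is not plotted. Paired libraries differed by more than sampling noise (chi-square per degree of freedom 1.65 to 8.39).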

Additional observations from a re-analysis of the deposited data

Results flagged for a closer look

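The effect of 2000 pg IFNγ on Cxcl10 differed between cells with and without oxaliplatin, with a log2 difference of 3.22 by the interaction term (edgeR adjusted p = 0.0329). The call was lost in 6 of 12 single omissions, with an adjusted p of up to 0.433, and with the replicate number as a block (0.0648). Counts were 447 and 399 in Combo2000 against 18 and 20 in Oxali, and 7 and 8 in IFN2000 against 4 and 2 in Ctrl, so both pairs of groups were ordered the same way. With 2 libraries a group no single library could be tested as standing apart from its group.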

How the results depend on the processing

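Of the ligand results, 276 of 288 values with 1 library left out and 139 of 143 under the other alternatives kept their direction and side of the threshold. The Cxcl10 difference in IFN200 turned positive without Ctrl replicate 1 (0.10) or IFN200 replicate 1 (0.15), with a range of -1.75 to 0.15. Cxcl10 in Combo200 against Oxali ranged from 1.25 to 1.45, and its interaction at 2000 pg from 2.58 to 3.69. The adjusted p of Cxcl11 in Combo200 against Oxali ranged from 0.00315 to 0.299 and was 0.0808 with DESeq2; the cause was not tested.

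The replicate number as a block ended 3 calls, each by adjusted p: Cxcl10 in Combo200 against Oxali (1.21, 0.0916), its interaction at 2000 pg (3.21, 0.0648) and Cxcl11 in Combo200 against Oxali (0.253). It changed no other ligand call. None of 21 same-numbered pairs of libraries had deviations correlated over 0.1 (-0.0456 to 0.0450), and 3 of 12 libraries were closest to their own number. With 2 libraries a group the deviations mirror each other, so some of these values repeat. The check therefore cannot exclude that the numbers pair the libraries.

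The log2 ratios of members with oxaliplatin minus without (exact permutation, adjusted over 3) depend on the number added to each count, since Cxcl9 and Cxcl11 are at 0 to 2 counts without oxaliplatin, and nothing is read from them. With 1 added they were 1.45 for Cxcl10 to Cxcl9 (adjusted p = 0.111), 0.494 for Cxcl10 to Cxcl11 (0.185) and 0.959 for Cxcl11 to Cxcl9 (0.167). With 5 added they were 1.70 (0.0139), 1.03 (0.0139) and 0.67 (0.0278).

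Counts of all genes called higher moved from 15 to 63 in IFN200 with no filter and 25 with only the groups compared, from 1105 to 508 in IFN2000 with the block, from 208 to 135 in Combo200 against Oxali with the block, and from 444 to 294 in Combo2000 against Oxali with DESeq2 and 291 with the block. IFN2000 against IFN200 moved from 1493 to 756 with the block and 886 with only the groups compared. The interaction at 200 pg moved from 74 to 189 with no filter, 38 with the block and 132 with only the groups compared, and that at 2000 pg from 280 to 159 with DESeq2 and 626 with no filter. Upper-quartile scaling moved the genes called lower in that interaction from 79 to 150.

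Depth limits the low groups: 1 to 4 counts of Cxcl10 in Ctrl and IFN200 and 0 to 2 of Cxcl9 and Cxcl11 leave wide intervals, so the smallest ligand differences among these groups were not detectable.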
